A study of Mus musculus with 25 samples.

Results

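The genes described here are 34 mouse genes of the meiotic program, measured in RNA of sperm from the cauda epididymis. They were taken by name from the gene table and not by their values. Of the 24358 genes in that table, 32 matched under the members' own symbols and 2 under an older symbol, namely Terb1 as Ccdc79 and Majin as 1700123I01Rik. Estimates were usable in every condition for 33 of them. For Tex14, a protein of the bridges that join germ cells, Cuffdiff failed in all 5 conditions, so Tex14 has no value below.

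Meiosis reduces the chromosome set of a germ cell, and in the male it takes place in spermatocytes of the testis. Retinoic acid signaling switches cells into meiosis through Stra8. Cohesins then build a protein axis along each chromosome, Spo11 cuts the DNA, and the recombinases with their partners repair the cuts on the homologous chromosome. The synaptonemal complex zips the homologs together in the meantime, and a few of the repaired sites become crossovers. Spermatids and sperm come after these steps, and mature sperm are held to be nearly silent in transcription, so that their RNA is largely carried over from earlier stages.

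The study exposed male mice of the C57BL/6J and FVB/N inbred strains in utero to bis(2-ethylhexyl)phthalate (DEHP), a plasticizer with anti-androgenic activity. Dams received 300 mg/kg/day DEHP in corn oil by mouth on embryonic days 9 to 19 (D300), or corn oil alone (CTL). Sperm of adult males, 14 weeks old per the labels, gave 25 libraries of all RNA types, with 5 libraries in each of 5 conditions. They are C57.CTL.F1 and FVB.CTL.F1, C57.D300.F1 and FVB.D300.F1, and, from the next generation, C57.D300.F2. The F2 males were sired by exposed F1 males on unexposed females, and they have no F2 control. Both C57BL/6J F1 conditions are labelled as a re-analysis of earlier data, and the other 15 libraries as new. Strain at F1 and generation within C57BL/6J therefore cannot be told apart from the set of libraries, whereas both DEHP comparisons and FVB.D300.F1 against C57.D300.F2 each lie within 1 set. Sperm had swum out of the incised cauda, and their purity was judged by microscopy and, after sequencing, from the lengths of the reads. RNA of genes used as markers of other tissues was measured all the same, as given below. Fewer cells of a type and less RNA per cell cannot be told apart in such bulk samples.

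Promoters were examined because the members are known to be switched on together in the germ line. RefSeq windows on GRCm38.p6, from 250 bases before to 50 bases after the start, were matched for 29 of the 34 members, with Spo11, Majin, Meiob, Tex15 and Tex11 lacking one. The motifs searched, each on both strands, were the E-box CACGTG, which reads the same on either strand, the E2F site TTCCCGC or its complement GCGGGAA, and the MYB site AACNGTT. The windows below show 5 members with a motif and 1 without. Syce2 and Smc1b differed most between the strains in their groups, Stag3 went the other way, and Hormad1 and Sycp3 belong to the axis, at low or uncertain counts. Hormad2, an axis gene with a large difference between the strains, has none of the motifs. Capitals mark the E-box and E2F motifs.
Syce2, chr8:84872008-84872307, plus strand: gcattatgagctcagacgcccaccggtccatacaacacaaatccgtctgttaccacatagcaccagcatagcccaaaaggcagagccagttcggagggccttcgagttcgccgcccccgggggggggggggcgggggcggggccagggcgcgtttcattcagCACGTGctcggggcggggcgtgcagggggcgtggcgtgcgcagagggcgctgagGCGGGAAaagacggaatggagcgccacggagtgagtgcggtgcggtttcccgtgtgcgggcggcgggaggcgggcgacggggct
Smc1b, chr15:85131908-85132207, minus strand: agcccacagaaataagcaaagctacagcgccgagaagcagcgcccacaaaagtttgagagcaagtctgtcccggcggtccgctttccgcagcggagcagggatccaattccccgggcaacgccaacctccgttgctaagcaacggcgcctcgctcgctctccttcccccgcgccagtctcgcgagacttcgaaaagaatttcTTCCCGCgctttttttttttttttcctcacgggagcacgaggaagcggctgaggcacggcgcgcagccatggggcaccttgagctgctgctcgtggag
Stag3, chr5:138280259-138280558, plus strand: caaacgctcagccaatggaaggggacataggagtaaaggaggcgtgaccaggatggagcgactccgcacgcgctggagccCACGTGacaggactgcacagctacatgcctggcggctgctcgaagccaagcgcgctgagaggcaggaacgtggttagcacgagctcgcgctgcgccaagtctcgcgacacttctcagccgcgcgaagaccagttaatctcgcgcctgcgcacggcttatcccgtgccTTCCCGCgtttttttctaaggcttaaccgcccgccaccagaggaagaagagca
Hormad1, chr3:95559427-95559726, plus strand: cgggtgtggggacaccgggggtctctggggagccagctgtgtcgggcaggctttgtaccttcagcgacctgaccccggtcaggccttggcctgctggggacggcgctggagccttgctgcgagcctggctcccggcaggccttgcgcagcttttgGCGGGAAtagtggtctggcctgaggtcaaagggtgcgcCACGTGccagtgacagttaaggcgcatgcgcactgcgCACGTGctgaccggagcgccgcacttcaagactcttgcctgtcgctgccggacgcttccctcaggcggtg
Sycp3, chr10:88459337-88459636, plus strand: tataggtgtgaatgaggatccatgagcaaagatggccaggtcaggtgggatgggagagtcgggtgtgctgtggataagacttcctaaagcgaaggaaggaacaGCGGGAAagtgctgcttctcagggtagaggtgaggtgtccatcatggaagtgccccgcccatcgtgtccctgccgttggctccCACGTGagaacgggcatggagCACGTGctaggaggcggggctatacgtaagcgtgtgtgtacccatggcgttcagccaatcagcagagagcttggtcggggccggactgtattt
Hormad2, chr11:4441033-4441332, minus strand: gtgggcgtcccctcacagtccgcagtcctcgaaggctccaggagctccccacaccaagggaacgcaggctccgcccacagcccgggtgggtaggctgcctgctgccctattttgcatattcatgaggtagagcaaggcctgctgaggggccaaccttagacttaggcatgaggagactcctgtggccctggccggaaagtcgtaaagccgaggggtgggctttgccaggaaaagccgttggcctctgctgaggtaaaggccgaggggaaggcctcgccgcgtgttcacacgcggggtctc

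The E-box stood in the windows of 9 of the 29 members (31.0%), against 8.09% of 27025 genes with a window. The E2F site stood in 11 of the 29 (37.9%), against 5.29% of all genes. Both motifs occurred together in 6 members, and 14 members held at least 1 of the 3 motifs. The MYB site was found in 1 member (3.45%), Sycp1, against 5.01% of all genes. Among 14 spermatid and sperm markers with a window, 0 had the E-box, 1 the E2F site and 1 the MYB site. Windows of the members were also richer in CpG, with a median of 18 per window against 7 over all windows, and the median GC content was 60.7% against 52.7%. The part of base composition in these shares was not tested. Of the members with a window that were called lower in FVB/N controls than in C57BL/6J controls, Hormad1, Syce2, Smc1b, Spata22 and Brdt had one, and Sycp2, Hormad2, Syce1, Syce3, Rec8 and Ccna1 had none. A second window of Syce2, chr8:84871861-84872160, also held none.

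Estimated counts summed over all genes to between 6921688 and 8602900 per condition, each a combination of 5 libraries. RNA of genes used as markers of other tissues differed widely between conditions. A set of 13 hepatocyte markers, led by Alb, made up 2.85% of all counts in C57BL/6J controls, 2.71% in exposed C57BL/6J F1 males, 0.0797% in the F2, 0.0167% in FVB/N controls and 0.0120% in exposed FVB/N males. The 8 seminal vesicle markers took 2.83% of the counts in C57.CTL.F1 and from 0.0148% to 0.0334% elsewhere. The 14 epididymal markers with values took 0.911% in FVB.D300.F1 and from 0.314% to 0.662% elsewhere. Cd52 alone held 24861 of 26982 counts in C57BL/6J controls, 43515 of 45846 in the F2 and 30497 of 75402 in exposed FVB/N males. Crisp1, a further epididymal marker, is left out because its estimate failed in some conditions. It stood at 219328 counts in exposed FVB/N males and at 108274 in C57BL/6J controls, more than the 14 together. The SD that Cuffdiff assigns to it was larger than the count in both. The shares given are therefore not those of all epididymal RNA. Markers of testicular support cells were uneven. Of 9 Sertoli cell markers, Fshr and Rhox5 stayed under the detection limit of 3 counts, while Wt1 lay between 76.8 and 232 counts, Sox9 between 75.4 and 105, and Cldn11 between 17.9 and 32.6. Clu, a Sertoli marker that the epididymis also makes, reached 42154 counts and makes up nearly all of the list's sum, which ran from 13145 counts for C57BL/6J controls to 42355 for exposed FVB/N males. Of 8 Leydig cell markers, Lhcgr and Hsd3b1 did not exceed 3.27 counts, while Star lay between 77.7 and 105, Cyp17a1 between 18.6 and 241 and Hsd17b3 between 1.07 and 29.8. The Leydig list summed to between 119 and 392 counts per condition, highest in FVB.D300.F1. Between the control strains (FVB/N minus C57BL/6J) the median log2 ratio was -0.10 for the Sertoli list and 1.10 for the Leydig list. The source of these RNAs and their part in the results below were not tested. The paper lists some of these genes, such as the hepatocyte marker Serpina1b and the seminal vesicle marker Svs4, as expressed in spermatozoa.

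Meiotic genes formed a small and uneven share of this RNA. The 33 members with values summed to 2731 counts in C57BL/6J controls, 2701 in exposed C57BL/6J F1 males, 1866 in the F2, 1257 in FVB/N controls and 1693 in exposed FVB/N males. These sums are 0.0317%, 0.0349%, 0.0270%, 0.0166% and 0.0204% of all counts in the same order. At least 100 counts in some condition were reached by 10 members, 15 others peaked between 10 and 100, and 8 stayed under 10 throughout. No member was listed at 0. Per kilobase of merged exons, the median member stood at percentile 41.6 of all genes in C57.CTL.F1 and at percentile 37.6 in FVB.CTL.F1. The highest level per kilobase in C57.CTL.F1 was that of Syce2, at 432 counts per kilobase and percentile 96.2, followed by Syce1, at 149 and percentile 89.6. Errors below are the SD of a count under Cuffdiff's model and not an SD between libraries. With 1 value per condition no test was possible, and a gene was called at a difference of at least 1 log2 unit (counts with 1 added) provided that either condition reached 10 counts.

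**Figure D1:**
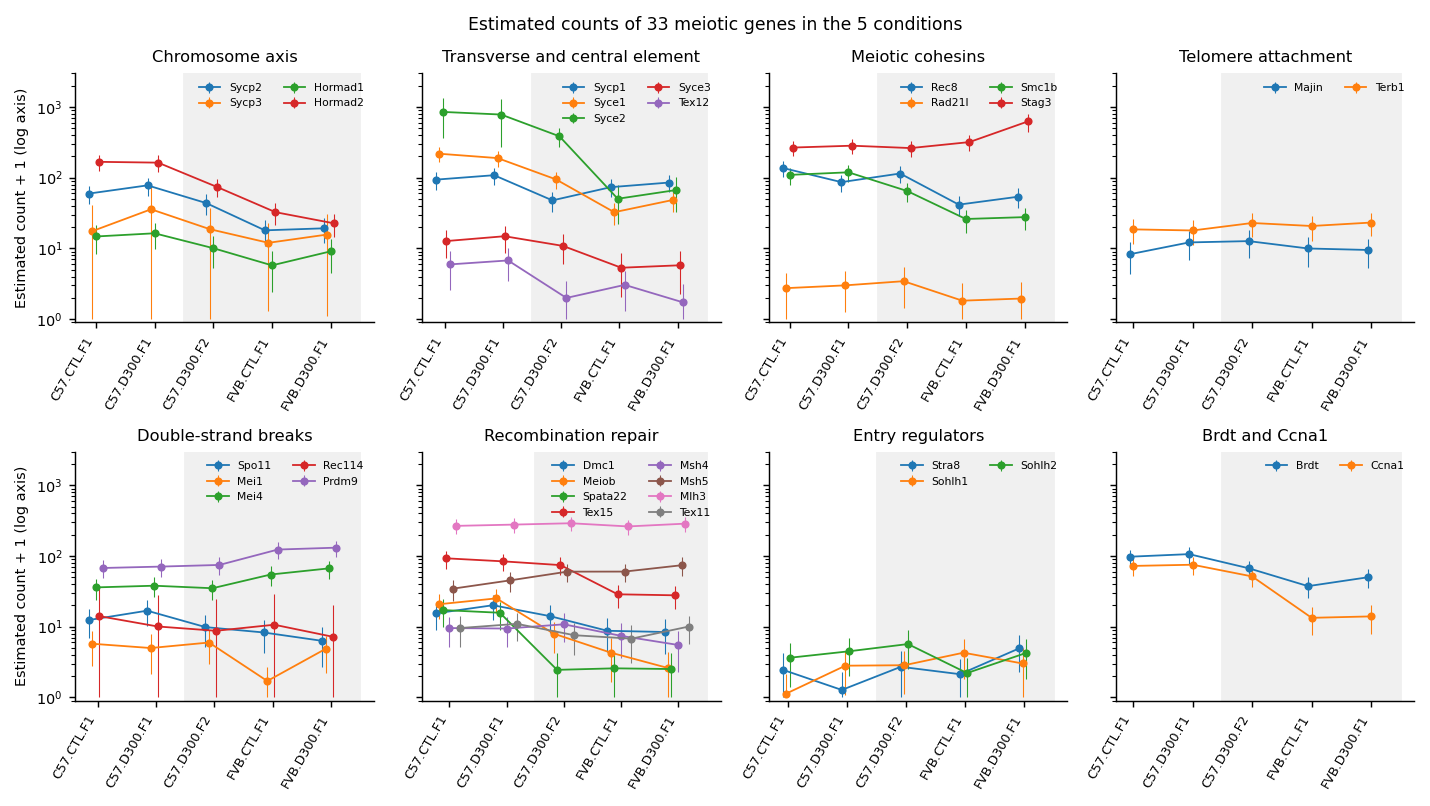
Estimated counts plus 1 (log axis) of 33 meiotic genes in the 5 conditions, 1 panel per role, with bars of 1 model SD cut off at 0 counts, and lines that only join the values of a gene. The shaded conditions are the newly made libraries. Syce2 runs from 850.4 counts in C57.CTL.F1 to 49.3 in FVB.CTL.F1, whereas Stag3 has its highest value, 625, in FVB.D300.F1.

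The axis of the meiotic chromosome is made of Sycp2 and Sycp3, the lateral element proteins, and of the HORMA-domain proteins Hormad1 and Hormad2, which survey synapsis. Hormad2 was measured at 166 ± 41.96 counts in C57BL/6J controls, 162 ± 43.02 in exposed C57BL/6J F1 males, 73.1 ± 20.98 in the F2, 31.5 ± 11.05 in FVB/N controls and 21.6 ± 8.19 in exposed FVB/N males. Both C57BL/6J F1 values lay highest, F2 was intermediate, and both FVB/N values lay lowest. Sycp2 followed the same order, with 58.5 ± 17.4 counts, 76.9 ± 22.05, 42.7 ± 14.1, 16.99 ± 7.14 and 18.2 ± 7.28. Hormad1 stood at 13.7, 15.3, 9.06, 4.75 and 8.08 counts.

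Sycp3, the structural core of the axis, had 16.5 ± 24.1 counts in C57BL/6J controls, 34.7 ± 48.4 in exposed C57BL/6J F1 males, 17.7 ± 18.9 in the F2, 10.99 ± 10.7 in FVB/N controls and 14.7 ± 14.6 in exposed FVB/N males. Its model SD was as large as or larger than the count in 3 of the 5 conditions. The coefficient of variation (CV) under the model was 3.44 times the median of genes with similar counts in C57.CTL.F1 and 4.09 times in C57.D300.F1. Of the 1264 exon bases of Sycp3, 660 are shared with exons of Chpt1 on the opposite strand. Chpt1, a phospholipid synthesis enzyme, was measured at 564, 532, 250.2, 113 and 109.9 counts in the same order of conditions, in a study that mapped its reads with a strand-specific setting. Whether the counting used strand is not given in the sources used here. With this overlap and this model SD, the Sycp3 value is uncertain.

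The synaptonemal complex is closed by the transverse filament Sycp1 and by the central element proteins Syce1, Syce2, Syce3 and Tex12. Syce2 showed the widest range of all members, with 850.4 ± 487 counts in C57BL/6J controls, 780.4 ± 512 in exposed C57BL/6J F1 males, 384 ± 111 in the F2, 49.3 ± 28.3 in FVB/N controls and 65.8 ± 34.4 in exposed FVB/N males. Its model CV in C57.CTL.F1 came to 2.31 times the value typical of its count. Syce2 also spans part of Gcdh on the opposite strand, with no exon base in common, and Gcdh, a mitochondrial enzyme of lysine breakdown, had 1015, 884, 185, 148 and 155 counts. Syce1 was measured at 217 ± 53.5 counts, 188 ± 47.2, 93.7 ± 25.7, 31.5 ± 10.9 and 47.3 ± 15.3. The order of the conditions was the same as for Hormad2, except that the lowest value came from FVB.CTL.F1.

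Sycp1 behaved differently from its central element partners. It stood at 92.8 ± 26.2 counts in C57BL/6J controls, 107 ± 28.6 in exposed C57BL/6J F1 males, 46.7 ± 14.7 in the F2, 72.4 ± 20.8 in FVB/N controls and 84.3 ± 23.2 in exposed FVB/N males. The lowest value was that of F2, and the strains overlapped. Syce3 lay between 4.32 and 13.9 counts, and Tex12 between 0.723 and 5.75.

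Meiotic cohesins hold sister chromatids together along the axis. Their kleisin Rec8 had 136 ± 34.9 counts in C57BL/6J controls, 85.5 ± 23.7 in exposed C57BL/6J F1 males, 114 ± 29.97 in the F2, 40.6 ± 13.2 in FVB/N controls and 52.6 ± 16.7 in exposed FVB/N males. All C57BL/6J values exceeded both FVB/N values. The SMC subunit Smc1b was measured at 108 ± 29.6 counts, 118 ± 30.9, 63.8 ± 19.4, 25.04 ± 9.27 and 26.7 ± 9.59, again with C57BL/6J F1 highest, F2 between and FVB/N lowest. Rad21l, the other meiotic kleisin, stayed between 0.821 and 2.44 counts, at or under the detection limit.

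Stag3, the subunit common to meiotic cohesin complexes, went the other way. It had 266 ± 64.6 counts in C57BL/6J controls, 282 ± 67.7 in exposed C57BL/6J F1 males, 261 ± 64.04 in the F2, 318 ± 78.7 in FVB/N controls and 625 ± 177 in exposed FVB/N males. The exposed FVB/N condition stood apart from the other 4, which lay within 1 model SD of each other. Set beside their general counterparts per kilobase of exons, Rec8 reached from 13.8 to 46.4 counts and Rad21 from 138 to 183, while Smc1b reached from 6.19 to 29.2 and Smc1a from 96.0 to 142. Stag3, at 109 ± 30.9 counts per kilobase in FVB.D300.F1, lay between Stag1 at 76.5 ± 18.6 and Stag2 at 128 ± 31.6, within the model SD of either difference. In the other conditions Stag3 lay between 45.6 and 55.4, and Stag1 between 63.5 and 73.4.

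**Figure D2:**
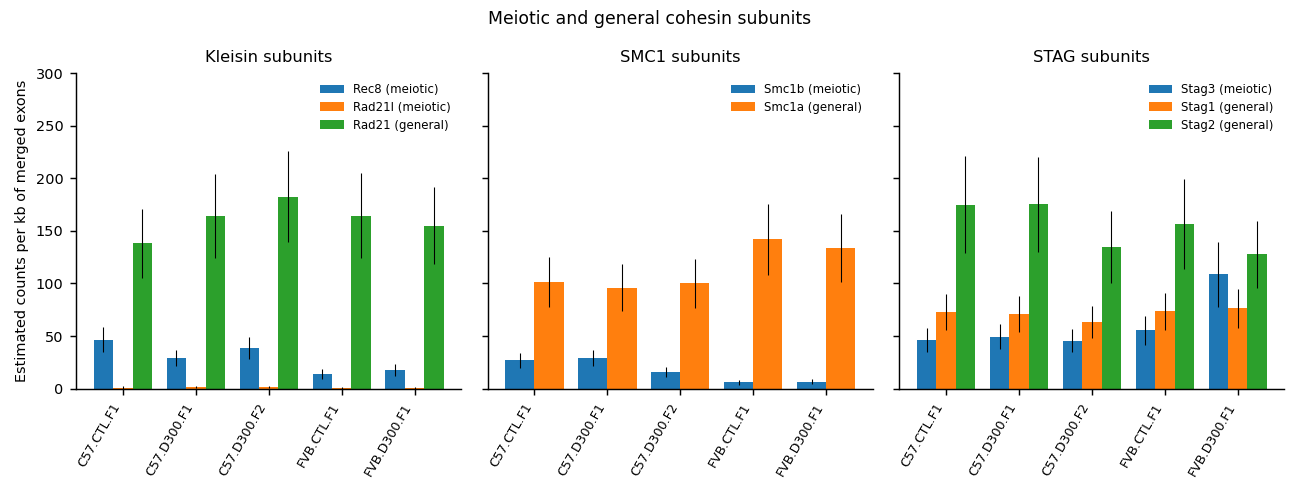
Estimated counts per kilobase of merged exons of meiotic and general cohesin subunits in the 5 conditions (bars, axis from 0), with error bars of 1 model SD. Stag3 is at 109 in FVB.D300.F1 and at 55.4 or lower in the other conditions, whereas Smc1b is at 29.2 or lower and Smc1a at 96.0 or higher throughout.

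Telomere attachment to the nuclear envelope depends on Terb1 and Majin. Terb1 lay between 16.9 and 22.2 counts and Majin between 7.25 and 11.7, with overlapping strains and generations. For neither gene did any difference between conditions exceed its model SD.

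Break formation and placement involve Spo11, the enzyme that cuts DNA, its accessory proteins Mei1, Mei4 and Rec114, and Prdm9, the histone methyltransferase that marks where the cuts occur. Prdm9 had 66.6 ± 19.4 counts in C57BL/6J controls, 69.8 ± 19.8 in exposed C57BL/6J F1 males, 73.7 ± 20.7 in the F2, 122 ± 32.3 in FVB/N controls and 130.1 ± 33.8 in exposed FVB/N males. Both FVB/N values lay above all C57BL/6J values. Mei4 was likewise higher in FVB/N, with 34.9, 36.96, 33.97, 53.7 and 65.8 counts. Spo11 stood at 11.4, 15.8, 8.86, 7.28 and 5.30 counts, that is, highest in both C57BL/6J F1 conditions. Mei1 did not exceed 4.97 counts. Rec114, between 6.21 and 13.1 counts, shares 344 of its 1277 exon bases with Nptn on the opposite strand and had a model CV of 1.61 in C57.CTL.F1, so it is also uncertain.

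Strand exchange and repair are carried out by the recombinase Dmc1 with Meiob, Spata22 and Tex15, while Msh4, Msh5, Mlh3 and Tex11 act in crossover formation. Mlh3 was the steadiest of the abundant members, with 266 ± 62.5 counts in C57BL/6J controls, 277 ± 65.4 in exposed C57BL/6J F1 males, 289 ± 67.99 in the F2, 261 ± 61.4 in FVB/N controls and 286 ± 66.8 in exposed FVB/N males. All 5 values overlapped within 1 model SD. Tex15 had 91.7 ± 26.6 counts, 82.9 ± 22.8, 73.3 ± 21.03, 27.7 ± 10.05 and 26.8 ± 9.85, with the 3 C57BL/6J values above both FVB/N values. Msh5 was higher toward the end of the same list, from 33.5 ± 11.7 and 44.2 ± 14.4 to 59.0 ± 17.4, 59.1 ± 17.98 and 72.99 ± 21.2 counts.

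Meiob and Spata22, which bind single-stranded DNA as a pair, were low outside C57BL/6J F1. Meiob stood at 19.8 ± 7.91 counts in C57BL/6J controls, 24.1 ± 9.06 in exposed C57BL/6J F1 males, 6.98 ± 3.74 in the F2, 3.29 ± 2.65 in FVB/N controls and 1.60 ± 1.73 in exposed FVB/N males. Spata22 had 16.2 ± 7.36 and 14.7 ± 6.71 counts in the first 2 of these and 1.45, 1.58 and 1.52 in the other 3, under the detection limit. Most exon bases of Spata22, 1025 of 1274, belong on the same strand also to the gene model Gm49340, which is a limit on that value. Dmc1 ran from 7.41 to 19.1 counts with the C57BL/6J values highest, and Msh4 and Tex11 did not exceed 9.97. Msh4 shares 125 exon bases with a small nucleolar RNA gene on the opposite strand.

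Stra8, Sohlh1 and Sohlh2, which act at or before entry into meiosis, were close to the detection limit everywhere. The highest values were 3.93 counts for Stra8, 3.28 for Sohlh1 and 4.68 for Sohlh2, and no ratio of theirs is read singly here. They do enter the medians and direction counts over 33 members. Later in meiotic prophase, Brdt reads acetylated histones and Ccna1 is the germ cell cyclin A that spermatocytes need to divide. Brdt had 96.6 ± 25.7, 105 ± 28.1, 66.1 ± 19.1, 36.4 ± 12.4 and 48.9 ± 15.1 counts. Ccna1 had 71.3 ± 20.6, 74.2 ± 20.5, 50.4 ± 15.4, 12.3 ± 5.74 and 12.98 ± 5.98, and it shares 185 of its 1835 exon bases with an antisense gene of 7.89 to 29.8 counts. Both were highest in C57BL/6J F1, intermediate in F2 and lowest in FVB/N.

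Both F1 comparisons between the strains gave larger differences than the other comparisons. That of unexposed males is given first. FVB.CTL.F1 lay at least 1 log2 unit under C57.CTL.F1 in 13 of 24 members with enough counts, against 18.8% of 17086 genes over the whole table. No member was higher by that much, against 7.5% of all genes. Of the same 24 members, 7 were lower by at least 2 log2 units, against 8.88% of all genes. Syce2 was 17.2-fold lower (log2 ratio -4.08), Syce1 6.90-fold (-2.75), Meiob 6.01-fold (-2.28), Ccna1 5.78-fold (-2.44), Hormad2 5.28-fold (-2.37) and Smc1b 4.33-fold (-2.07). Spata22 was at least 5.39-fold lower. Sycp2, Rec8, Tex15, Brdt, Hormad1 and Syce3 were lower by 2.65- to 3.45-fold. For all 13 the difference exceeded its model SD, as it did for 25.3% of all genes in that direction. The median log2 ratio over the 33 members, including those under 10 counts, was -0.72 and that over all genes 0. Of these members 26 were lower and 7 higher, and of 24298 genes with values 11293 were lower and 11807 higher. Prdm9 (1.84-fold higher, log2 ratio 0.87) and Msh5 (1.77-fold, 0.80) stayed under the threshold, although their differences exceeded the model SD. Spermatid and sperm markers and hepatocyte markers differed in the same direction and further, with medians of -3.27 over 16 genes and -7.56 over 13 genes, and their part in the result was not tested.

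The same comparison between exposed males shares no library with the one above. FVB.D300.F1 was called lower than C57.D300.F1 in 14 of 24 members, against 19.9% of all genes, and higher in 1, against 12% of all genes. Syce2 was 11.9-fold lower (log2 ratio -3.55), Hormad2 7.52-fold (-2.85) and Ccna1 5.72-fold (-2.43), and Meiob was at least 8.05-fold lower. The member that was higher was Stag3, by 2.21-fold (1.14). The median log2 ratio of the members was -0.77. Dmc1 and Spo11 were called lower here, at -1.26 and -1.42, and not in the comparison of the controls, where they had log2 ratios of -0.82 and -0.58. Sycp3 was also called, at -1.19, with a difference within its model SD. Spermatid and sperm markers had a median of -2.71 over 16 genes and hepatocyte markers of -7.65 over 13. Epididymal markers went the other way, with a median of 7.25 over 14 genes. The part of these markers was not tested.

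**Figure D3:**
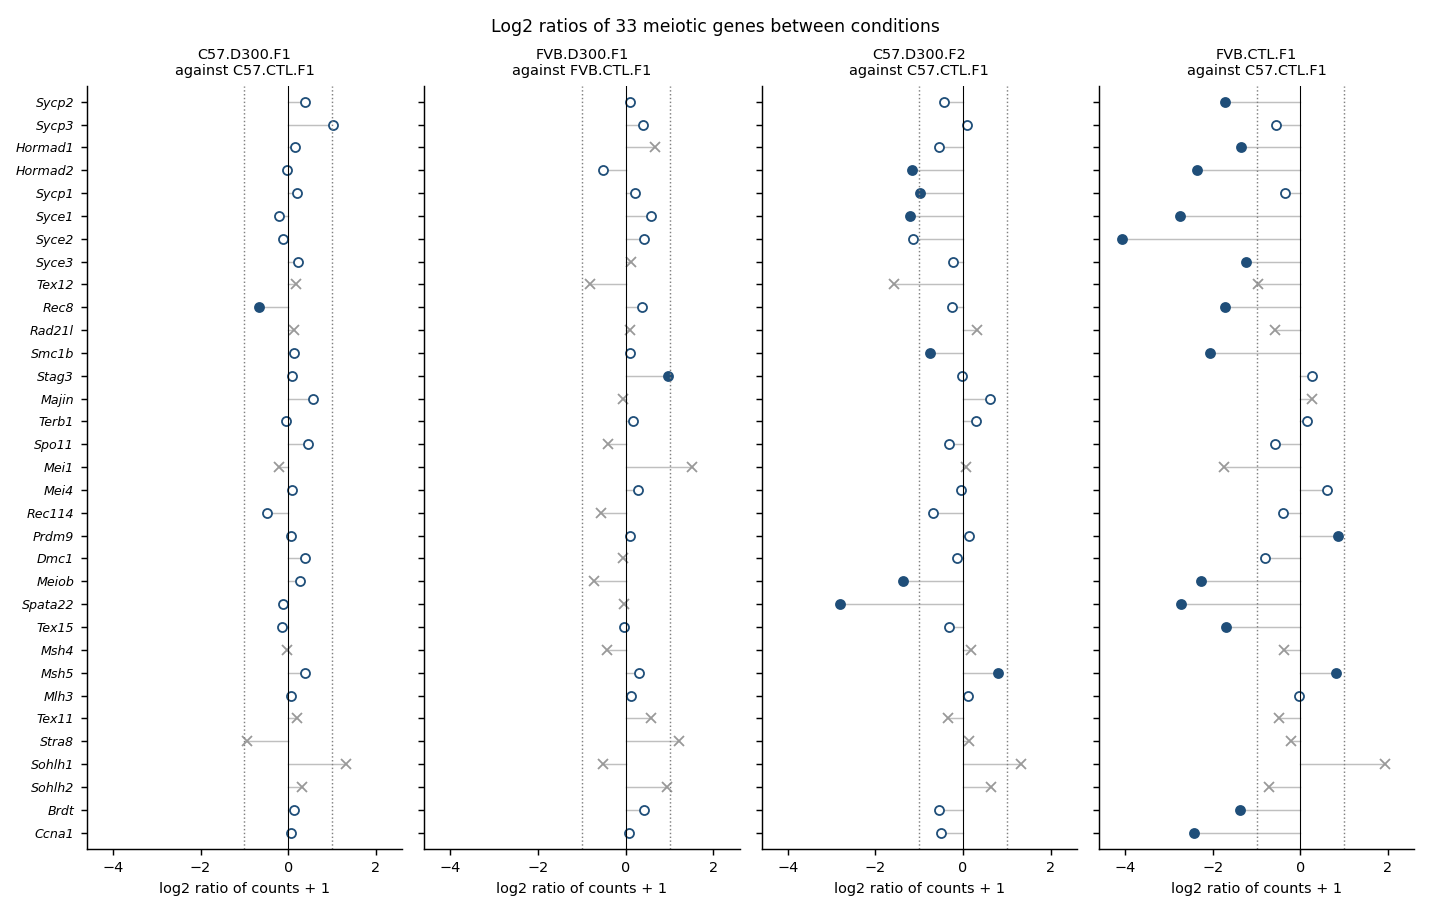
Log2 ratios (counts with 1 added) of 33 meiotic genes in 4 comparisons, with dotted lines at 1 log2 unit either way. Filled points mark differences above their model SD, open points those within it and crosses genes under 10 counts in both conditions. Between the control strains, 13 tested members lie beyond the lower line, and in the DEHP comparison within FVB/N no tested member lies beyond either line.

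Within the newly made libraries, FVB.D300.F1 can be set against C57.D300.F2, which differs from it in strain and in generation. In FVB.D300.F1, 7 of 19 members were called lower, against 10.6% of all genes. They were Syce2 (5.83-fold, log2 ratio -2.53), Ccna1 (3.88-fold, -1.88), Hormad2 (3.39-fold, -1.72), Tex15 (2.74-fold, -1.42), Smc1b (2.39-fold, -1.23), Sycp2 (2.35-fold, -1.19) and Rec8 (2.16-fold, -1.09). Stag3 was called higher, by 2.39-fold (1.26), against 6.98% of all genes. Sycp1 (0.84), Mei4 (0.93) and Prdm9 (0.81) were higher without reaching the threshold. Syce1, at -0.97, was not called. The median log2 ratio of the members was -0.42. Spermatid and sperm markers had a median of -1.68 over 16 genes and hepatocyte markers of -2.49 over 13. Epididymal markers went the other way, with a median of 7.19 over 14 genes. Their part in the result was not tested.

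In the second generation, C57.D300.F2 was called lower than C57.CTL.F1 in 5 of 25 members, against 10.2% of all genes, and higher in none, against 4.1%. The 5 were Spata22 (at least 5.39-fold), Meiob (2.83-fold, log2 ratio -1.38), Syce1 (2.32-fold, -1.20), Hormad2 (2.28-fold, -1.18) and Syce2 (2.21-fold, -1.15, within its model SD). Sycp1 was just under the threshold at -0.97, and Smc1b was at -0.76. Msh5 was higher by 1.76-fold (0.80), above its model SD. The median log2 ratio of the 33 members was -0.26, but it was 0.05 with conditions scaled to equal totals and 0.02 with upper quartile scaling, and under either scaling only Spata22 and Meiob were called lower and 1 member higher. These scalings moved the median of all genes from 0.03 to 0.30 and 0.27. Against C57.D300.F1, their fathers' generation, F2 was called lower in 5 of 24 members (8.35% of all genes), namely Spata22, Meiob, Hormad2, Sycp1 and Syce2, and higher in none (2.69%). With equal totals 3 were lower, and with upper quartile scaling 2. The median was -0.45. Both comparisons share the F2 libraries. Spermatid and sperm markers had medians of -1.09 and -0.98 in them, and hepatocyte markers -5.68 and -5.20.

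Exposure to DEHP within C57BL/6J F1 went with few differences in these genes. One of 25 members was called higher in C57.D300.F1, against 1.09% of all genes, and 0 lower, against 1.15%. The gene called was Sycp3 (2.10-fold, log2 ratio 1.03), within its model SD and with the overlap given above. Rec8 was 1.59-fold lower (-0.67), under the threshold and the only member with a difference above its model SD, against 3.13% of all genes in that direction. The median log2 ratio was 0.12, with 22 members higher and 11 lower, including members under 10 counts. Of 24304 genes with values, 11923 were higher and 11254 lower. Seminal vesicle markers, with a median of -10.73 over 8 genes, had far larger ratios in this comparison. However, 0 of these 8 differences exceeded the model SD. Spermatid and sperm markers had a median of -0.12.

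In FVB/N, 0 of 17 members were called between exposed and control males, against 2.16% of all genes called higher and 0.619% called lower. Stag3 came closest, 1.97-fold higher in exposed males (log2 ratio 0.97), and was the only member whose difference exceeded its model SD, against 3.76% of all genes in that direction. Syce1 (0.57), Brdt (0.41) and Syce2 (0.41) were higher within their model SD, and Hormad2 (-0.53) was lower within it. The median was 0.11, again with 22 members higher and 11 lower. In FVB.D300.F1, 12 of 14 epididymal markers were called higher, with a median of 6.69. For 8 of the 14 the difference exceeded its model SD. Gfra1, a receptor of spermatogonial stem cells, stood at 847 ± 535 counts there and 81.8 ± 25.7 in FVB.CTL.F1. Of 8 spermatogonial markers with enough counts, only Gfra1 was called, and the median log2 ratio of the 8 was 0.25. Whether the epididymal markers and Gfra1 move with Stag3 within single libraries was not tested.

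The strain by exposure interaction is the DEHP log2 ratio of FVB/N minus that of C57BL/6J. Rec8 was the only one of 25 members called, at 1.04, with a DEHP ratio of 0.37 in FVB/N and of -0.67 in C57BL/6J and a difference above its model SD. Over all genes 4.45% were called higher and 2.92% lower. Rec8 was under the threshold with equal totals, with upper quartile scaling and with 10 added to each count. Stag3 had an interaction of 0.89. The median over the members was 0.01.

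The order of the 5 conditions was examined over members with at least 10 counts in any of them. In 13 of 25, F2 lay under both C57BL/6J F1 values and above both FVB/N values, against 21.8% of 17701 genes. They were Sycp2, Hormad1, Hormad2, Syce1, Syce2, Syce3, Smc1b, Spo11, Dmc1, Meiob, Tex15, Brdt and Ccna1. The reverse order was found in Prdm9 and Msh5, 2 of 25, against 17.4% of all genes. Both orders use bare values, and neighbouring values can lie within the model SD. Msh5 had 59.0 ± 17.4 counts in F2 and 59.1 ± 17.98 in FVB/N controls. Dmc1 had 13.1 ± 5.89 in F2 and 14.4 ± 6.44 in C57BL/6J controls. All 16 spermatid and sperm markers showed the first order, and 0 of 8 spermatogonial markers did. Smcp, a mitochondrial capsule protein of the sperm tail, ran from 35149 counts in C57.CTL.F1 to 10099 in C57.D300.F2 and 1799 in FVB.CTL.F1. Spermatogonial markers had no common course. Kit lay between 271 and 318 counts and Zbtb16 between 150.3 and 242, whereas Gfra1 stood at 411 and 383 counts in control and exposed C57BL/6J F1 males, 60.2 in the F2, and 81.8 and 847 in control and exposed FVB/N males. The conditions in this order are also ordered by the share of hepatocyte markers.

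**Figure D4:**
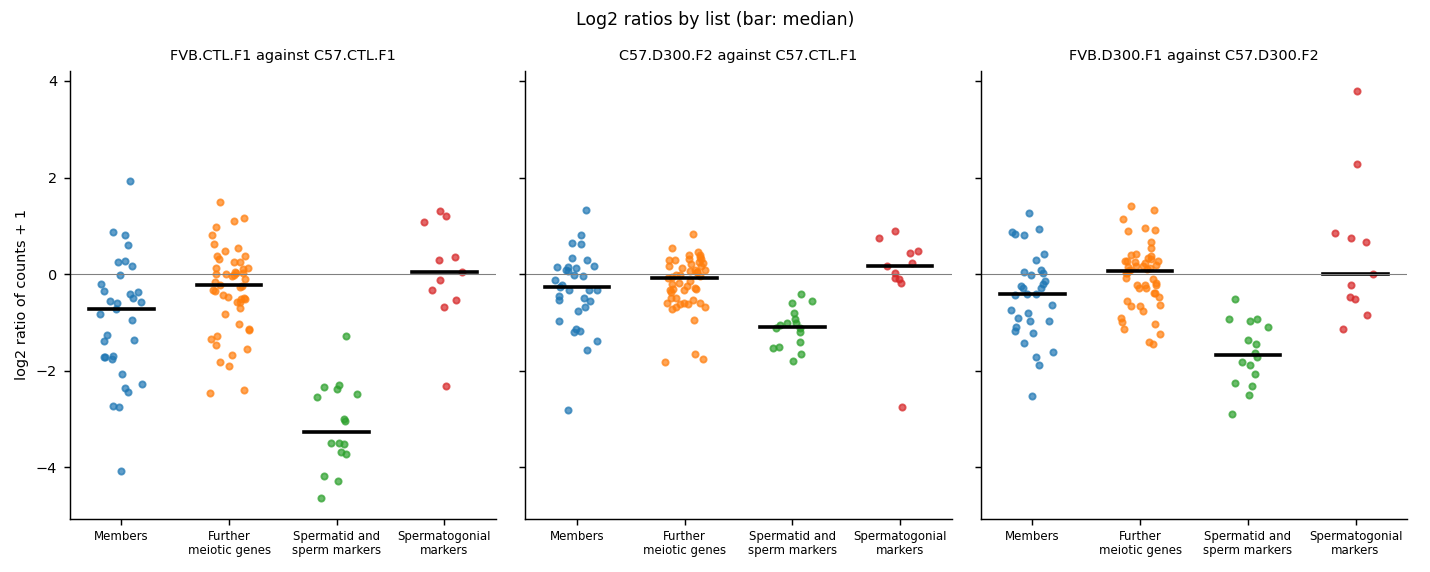
Log2 ratios (counts with 1 added) of 33 members, 51 further genes of meiosis and chromosome structure, 16 spermatid and sperm markers and 11 spermatogonial markers in 3 comparisons. Points are genes spread sideways at random, and bars are medians. Between the control strains the medians are -0.72, -0.24, -3.27 and 0.05.

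A list of 54 further genes of meiosis and chromosome structure, of which 51 had values, differed by kind. The list includes the general cohesin subunits Rad21, Smc1a, Smc3, Stag1 and Stag2. Its medians are therefore not those of genes particular to meiosis. Between the control strains, 12 of 47 were called lower and 3 higher, against 18.8% and 7.5% of all genes. Regulators of meiosis and the cell cycle differed about as far as the members, with 9 of 16 called lower, 1 higher and a median log2 ratio of -0.83 over 18 genes. Of the recombination genes, 1 of 18 was lower and 2 were higher, with a median of 0.03, and of the chromosome structure genes 2 of 13 were lower and 0 higher, with a median of 0.13. Between exposed strains the medians of the regulators, recombination and chromosome genes were -1.04, 0.03 and 0.02.

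Of the further genes with at least 100 counts in either control condition, the lower ones were Cks2, a partner of cyclin-dependent kinases (5.55-fold, log2 ratio -2.45), Mael, of the piRNA pathway (5.42-fold, -2.39), and Hspa2, a chaperone of spermatocytes (2.23-fold, -1.15), the last named after its value was seen. The higher one was Cpeb1, a regulator of mRNA polyadenylation (2.16-fold, 1.11). Cpeb1 had 172, 173, 214, 372 and 415 counts, an order like that of Prdm9. In FVB.D300.F1 against C57.D300.F1, 8 of 47 further genes were called lower and 4 higher, against 19.9% and 12% of all genes, and against C57.D300.F2, 2 of 44 each way, against 10.6% and 6.98%. Between F2 and C57BL/6J controls, 3 of 47 were lower and 0 higher (10.2% and 4.1% of all genes), and between F2 and exposed F1 males 1 of 46 was lower and 0 were higher (8.35% and 2.69%). DEHP went with 1 of 47 lower in C57BL/6J (1.15% of all genes), Cks2 (2.07-fold, -1.05), and with 0 of 44 called in FVB/N (2.16% higher and 0.619% lower). One of 47 was called higher in the interaction (4.45%). The medians of the whole list in these 7 comparisons and the interaction lay between -0.24 and 0.06.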

How the data were processed

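Sperm RNA of 25 libraries was sequenced on an Illumina HiSeq instrument after ribosomal RNA removal, fragmentation and small RNA library preparation. Per the submitters' processing notes and the study's methods, reads were called with CASAVA 1.8.2, clipped of the RA3 adapter (minimum length 18 bases), mapped to mm10 with a strand-specific setting of TopHat and quantified with Cuffdiff. The annotation release and whether the counting used strand are not given in the sources used here. The authors deposited, for every gene, a single signal per condition, which is Cuffdiff's estimate of its fragments after scaling between libraries and before any division by length, beside the variance that the model assigns to it. In all, 10 columns were used. Estimates that the authors' table marks as failed, 71 genes in at least 1 condition, were treated as missing. The combined values allow no p-value and no SD between libraries, so edgeR was not used.

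Log2 ratios of counts plus 1 were computed for all 24358 genes. A gene was eligible once either condition reached 10 counts and was called at 1 log2 unit, and folds against 3 counts or fewer were taken against 3, per condition. That floor is a counting limit, and the model SD is the one that Cuffdiff assigns, not an SD measured between libraries. The usable estimates summed to between 6921688 and 8602900 counts per condition, after scaling between libraries, and are not a measure of sequencing depth. The calling rule was tested on simulated data with counting noise alone, which is less than Cuffdiff's model gives. Its rate of false calls at the noise of these data was not tested. Exon lengths and overlaps are those of GENCODE M21 on GRCm38, which is mm10, and promoter windows those of RefSeq on GRCm38.p6. Scripts used Python 3.11.15, pandas 2.3.3, numpy 2.4.6 and matplotlib 3.10.9. All members were named, with full values for those called or with at least 100 counts, except that Syce3 and Dmc1 have ranges. For Hormad1, Spo11 and the low values of Spata22 the model SD is left out. Of the further list, the largest called differences were named, given 100 counts or more on the higher side, and of the marker lists the defining or most abundant genes. Members and lists were chosen with earlier results of these data known. Smooth muscle and connective tissue, blood and oocyte markers had medians of -0.43, -0.72 and -0.05 between the control strains (FVB/N minus C57BL/6J).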

Additional observations from a re-analysis of the deposited data

How the results depend on the processing

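No paired analysis was possible because the deposited values combine the 5 libraries of a condition, and for the same reason no replicate could be left out. Of 237 alternative values of 29 summaries over the members, 186 kept their size. Of 48 calls of single members 0 changed sign, but these settings could hardly reverse a call. The scalings move a ratio by far less than the 1 log2 unit of a call, and thresholds leave the ratio as it is. Levels per kilobase were also computed with the longest transcript. The order of comparisons below is F2 against C57.CTL.F1, F2 against C57.D300.F1, the strains as controls, the strains exposed, and FVB.D300.F1 against F2. Counts of members called lower, which were 5, 5, 13, 14 and 7, became 3, 3, 5, 5 and 2 with at least 100 counts and 1, 1, 7, 7 and 1 at 2 log2 units. With equal totals the first 2 became 2 and 3, with upper quartile scaling 2 and 2, and with 10 added to each count the exposed strains gave 9. Members called higher, which were 0, 0, 0, 1 and 1, became 1, 1, 1 and 2 in the first 4 without a minimum count. With equal totals F2 against C57.CTL.F1, the control strains and FVB.D300.F1 against F2 became 1, 1 and 0, with upper quartile scaling F2 against C57.CTL.F1 and both strain comparisons 1, 1 and 2, and at 2 log2 units the last 2 became 0 and 0. The single call in the C57BL/6J DEHP comparison became 0 with at least 100 counts, 2 log2 units, 10 added, median-of-ratios scaling, the model SD required, or without members sharing exon bases with an opposite-strand gene (chosen after seeing the data), and 2 without a minimum count, where FVB/N also gave 2. The interaction call, 1 higher and 0 lower, became 0 and 2 with equal totals, 0 and 1 with upper quartile scaling, 3 and 2 without a minimum count, 0 higher with 10 added or at 2 log2 units, and 1 lower with 0.1 added. Member medians became 0.0497 (equal totals) and 0.0153 (upper quartile) for F2 against C57.CTL.F1 and -0.25 for the interaction with equal totals. For the strains as controls they became -0.998 with 0.1 added and -0.32 with 10 added, for the strains exposed -0.49 and for FVB.D300.F1 against F2 -0.17 with 10 added. Setting values under 3 counts to 3, also chosen after seeing the data, moved no summary past its limit. Equal totals moved the median of all genes furthest in F2 against C57.CTL.F1, from 0.03 to 0.30. Causes of these shifts were not tested beyond what the settings remove by construction.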
